A study of Homo sapiens with 4 samples.

Results

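Potassium channel genes are the genes whose symbol begins with KCN. They encode the pore-forming subunits of the potassium channels and the accessory subunits that assemble with them. The members were selected on 2 things, the symbol and the annotation as protein-coding in GENCODE release 29, which gave 97 genes of 19951. They were then grouped by symbol into 40 voltage-gated, 16 inward rectifier, 15 two-pore and 8 calcium-activated channel genes and 18 accessory genes. A member was called listed in a cell line when its Ensembl identifier stood under any Gene Ontology (GO) term in the table deposited for that cell line.

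The study compared liver cancer cells before and after sonodynamic therapy (SDT), in which ultrasound activates a sensitizer that the cells have taken up. HepG2 and Huh7 are established human hepatocellular carcinoma cell lines. After removal of ribosomal RNA, total RNA gave 1 sequencing library for each of 4 groups: untreated HepG2 cells (group A), treated HepG2 cells (group B), untreated Huh7 cells (group C) and treated Huh7 cells (group D). The treatment of groups B and D combined targeted nanobubbles, which carried the sensitizer hematoporphyrin monomethyl ether (HMME) and lonidamine (LND), an inhibitor of energy metabolism, with low-frequency ultrasound exposure. Nanobubbles alone, either drug alone and ultrasound alone had no library, so the parts of the treatment cannot be told apart.

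A gene entered the list of group B vs. A or of group D vs. C when the authors had called its mRNA differentially expressed at an adjusted p-value under 0.05 and it had a GO annotation. Levels, fold changes and directions of single genes were not analysed here, and nor was the depth of the libraries. A listing therefore says that the authors called a difference, not whether the mRNA was higher or lower after SDT. With 1 library in a group no value has a replicate error, and the differences have no replicate check. The labelled cell type could not be set against marker levels. In bulk RNA, fewer cells of a kind and less RNA per cell cannot be told apart. The listing is the readout by which the members were called, so the counts of listed genes are a description and none was tested.

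Potassium channels let potassium ions leave or enter the cell along their gradient, and so set the resting membrane potential and end the action potential. In a channel, pore loops of its subunits form the selectivity filter, a short stretch of residues that strips water from potassium and turns sodium away. In hepatocytes the potential held by these channels drives the uptake of solutes that are carried in with sodium, and potassium outflow lets swollen cells recover their volume.

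The filter is the part that the pore-forming members share, and its coding sequence is shown for members of each class that were listed in both cell lines. The bases were read from the longest coding transcript in GENCODE release 29 and run 5′ to 3′ on the coding strand. The capitals mark the 15 bases of the 5 filter residues, with 12 bases on each side. For the voltage-gated class these were the transient channels KCND1 and KCND2, the cardiac and epithelial channel KCNQ1 (ENSG00000053918) and KCNH1 (ENSG00000143473) of the ether-a-go-go family.
KCND1: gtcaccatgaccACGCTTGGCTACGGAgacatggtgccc
KCND2: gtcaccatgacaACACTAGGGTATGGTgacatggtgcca
KCNQ1: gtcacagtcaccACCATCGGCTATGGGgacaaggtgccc
KCNH1: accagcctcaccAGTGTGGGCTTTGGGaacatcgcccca

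On GRCh38 the KCNQ1 stretch lies in a coding exon at chr11:2583435-2583473 on the plus strand and holds residues 312 to 316, and the KCNH1 stretch is at chr1:210919689-210919727 on the minus strand. In KCND1 (chromosome X) and KCND2 (chromosome 7) the stretch spans an exon junction and has no unbroken interval. The first filter residue was threonine in KCNQ1, KCND1 and KCND2 and serine in KCNH1, and the fourth was tyrosine in the former and phenylalanine in KCNH1.

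For the other classes the stretches are those of the inward rectifiers KCNJ6 (ENSG00000157542) and KCNJ14 (ENSG00000182324), of both pore loops of the two-pore channel KCNK2 (ENSG00000082482), and of the calcium-activated channels KCNMA1 (ENSG00000156113) and KCNN3 (ENSG00000143603).
KCNJ6: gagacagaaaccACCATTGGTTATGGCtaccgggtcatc
KCNJ14: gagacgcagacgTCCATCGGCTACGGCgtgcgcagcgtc
KCNK2, first loop: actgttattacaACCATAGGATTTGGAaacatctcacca
KCNK2, second loop: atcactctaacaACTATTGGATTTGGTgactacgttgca
KCNMA1: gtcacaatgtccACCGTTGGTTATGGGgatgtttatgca
KCNN3: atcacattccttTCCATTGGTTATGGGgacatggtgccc

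These lie in coding exons at chr21:37714677-37714715 on the minus strand (KCNJ6), chr19:48462151-48462189 on the plus strand (KCNJ14), chr1:215172144-215172182 on the plus strand (second loop of KCNK2), chr10:77110224-77110262 on the minus strand (KCNMA1) and chr1:154733048-154733086 on the minus strand (KCNN3). The first loop of KCNK2 spans an exon junction. KCNJ14 and KCNN3 have serine as the first filter residue and the others shown have threonine.

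The filter was searched in the translated coding sequence of all 97 genes as threonine, any residue, glycine, then tyrosine, phenylalanine or leucine, then glycine. It was found in 68 of the 79 pore-forming genes. The 11 others matched when serine was also allowed at the first position, a choice made after the first search, and were KCNH1, KCNH2, KCNH3, KCNH4, KCNH6, KCNH7, KCNH8, KCNJ14, KCNN1, KCNN2 and KCNN3. None of the 18 accessory genes held it in either form. Of the 15 two-pore genes, 13 had 2 matches, as their subunits carry tandem pore loops, whereas KCNK7 and KCNK15 had 1. With serine allowed, the voltage-gated KCNH2 and KCNH4 also had 2 matches, so a match by sequence alone need not be a filter. Of the 21 pore-forming genes listed in both cell lines, 20 were read for this purpose, and they held 23 filters, of which 19 began with threonine and 4 with serine. The fourth residue was tyrosine in 17 of these filters, phenylalanine in 5 and leucine in 1, the last in the second loop of KCNK6.

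In group B vs. A, 46 of the 97 KCN genes were listed (47.4%), where 23.9% of all protein-coding genes were. In group D vs. C, 41 were listed (42.3%), where 21.9% of all protein-coding genes were. Both lists held 26 KCN genes (26.8%, beside 11.4% of all protein-coding genes), and 61 stood in at least 1 list (62.9%, beside 34.3%). A further 20 were listed in HepG2 cells alone, 15 in Huh7 cells alone and 36 in neither. The 26 shared genes were 56.5% of the HepG2 members and 63.4% of the Huh7 members, and over all protein-coding genes the shared genes were 47.7% and 52.2% of the lists. All genes of a class were counted, so these shares have no sampling interval.

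**Figure D1:**
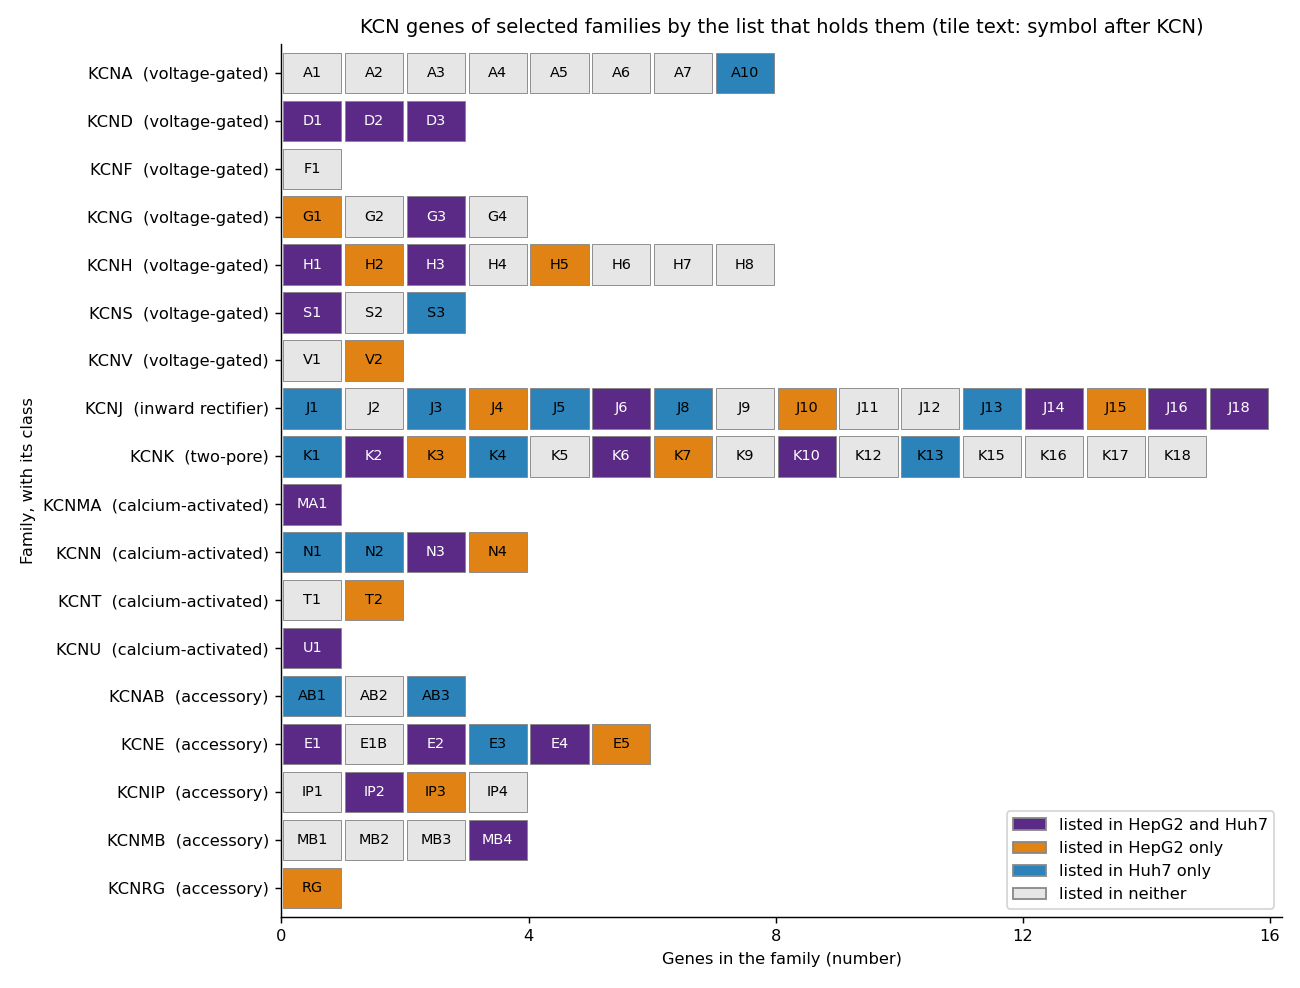
Each tile is a KCN gene of the families drawn, placed in the row of its family, with the number of genes in the family along the horizontal axis and the colour giving the list or lists that hold it (purple, both cell lines; orange, HepG2 only; blue, Huh7 only; grey, neither). KCND is purple throughout, KCNA is grey but for KCNA10, and the 16 KCNJ genes hold all 4 colours.

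Among the voltage-gated channels, 21 of 40 genes were listed in HepG2 (52.5%) and 13 in Huh7 cells (32.5%), with 11 in both lists. The 10 genes of the HepG2 list alone stood beside 2 of the Huh7 list alone, a difference between cell lines that was not tested. The KCND family, whose channels open and inactivate quickly and carry the A-type current, had all 3 of its members in both lists. Of the KCNQ genes, KCNQ1, which repolarizes heart muscle and recycles potassium in epithelia, was in both lists. KCNQ3 and KCNQ5, whose channels restrain repeated firing in neurons, were in the HepG2 list alone.

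Delayed rectifiers repolarize the membrane after it has been depolarized. KCNB2 was in the list of HepG2 cells alone. So were KCNC2 and KCNC4, of a family whose channels open and close quickly. KCNA, the family of the Shaker-related channels with 8 genes, had 0 listed in HepG2 and 1 in Huh7 cells, KCNA10. KCNA1 to KCNA7 and KCNC1 were in neither list.

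The KCNH family had 4 of 8 members in the HepG2 list and 2 in the Huh7 list. KCNH1 and KCNH3 were in both, while KCNH2, the channel of the rapid delayed rectifier current of the heart, and KCNH5 were in the HepG2 list alone. KCNH4, KCNH6, KCNH7 and KCNH8 were in neither. The KCNF, KCNG, KCNS and KCNV genes encode silent subunits, which form no channel alone and modify KCNB channels. Of these 10, 4 were listed in HepG2 and 3 in Huh7 cells. KCNG3 and KCNS1 were in both, KCNG1 and KCNV2 in HepG2 cells, KCNS3 in Huh7 cells, and KCNF1, KCNG2, KCNG4, KCNS2 and KCNV1 in neither.

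Inward rectifiers pass potassium into the cell more readily than out of it and hold the resting potential. Of the 16 KCNJ genes, 7 were listed in HepG2 (43.8%) and 9 in Huh7 cells (56.2%). KCNJ6, KCNJ14, KCNJ16 and KCNJ18 were in both lists. HepG2 cells alone listed KCNJ4, KCNJ10 and KCNJ15. Huh7 cells alone listed KCNJ1, the channel of potassium secretion in the kidney, KCNJ3, KCNJ5, KCNJ8 and KCNJ13. KCNJ2, KCNJ9, KCNJ11 and KCNJ12 were in neither list.

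The calls of near copies are uncertain. KCNJ12 and KCNJ18 encode proteins of 433 residues that differ at 6 (98.6% identical), and 13 of their 1302 coding bases differ, so reads could be split between them. KCNJ18 was in both lists and KCNJ12 in neither. KCNE1, in both lists, also has a near copy in the annotation, KCNE1B, which was in neither.

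Two-pore channels carry the background leak current. Of 15 KCNK genes, 5 were listed in HepG2 (33.3%) and 6 in Huh7 cells (40.0%). KCNK2 and KCNK10, which respond to membrane stretch, and KCNK6 were in both lists. KCNK3, which is closed by external acid, and KCNK7 were listed in HepG2 cells, and KCNK1, the stretch-responsive KCNK4 and KCNK13 in Huh7 cells. KCNK5, KCNK9, KCNK12, KCNK15, KCNK16, KCNK17 and KCNK18 were in neither.

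Calcium-activated channels couple the membrane potential to calcium in the cytosol. Of 8 genes of this class, 5 were listed in HepG2 and 5 in Huh7 cells (62.5% each), with 3 in both. These 3 were KCNMA1, the pore of the large conductance channel, KCNN3 of the small conductance channels, and KCNU1, a relative of KCNMA1 known from sperm. KCNU1 responds to pH and voltage and is placed in this class by its family. KCNN4, the intermediate conductance channel, and KCNT2, which responds to sodium and is placed here by its family, were listed in HepG2 cells. KCNN1 and KCNN2 were listed in Huh7 cells, so that each of the 4 KCNN genes stood in at least 1 list. KCNT1 was in neither.

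Of 18 accessory genes, 8 were listed in HepG2 and 8 in Huh7 cells (44.4% each), with 5 in both. The KCNE genes encode small membrane proteins that alter the gating of KCNQ1 and other channels, and 4 of 6 were in each list: KCNE1, KCNE2 and KCNE4 in both, KCNE5 in HepG2 cells and KCNE3 in Huh7 cells. Of the calcium-binding partners of KCND channels, KCNIP2 was in both lists, KCNIP3 in the HepG2 list, and KCNIP1 and KCNIP4 in neither. Of the cytosolic beta subunits of KCNA channels, KCNAB1 and KCNAB3 were listed in Huh7 cells and KCNAB2 in neither cell line. KCNMB4 was the member of the 4 KCNMB genes, the beta subunits of KCNMA1, that was listed, and it was in both lists. KCNRG, a soluble protein that interferes with the assembly of voltage-gated channels, was listed in HepG2 cells.

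**Figure D2:**
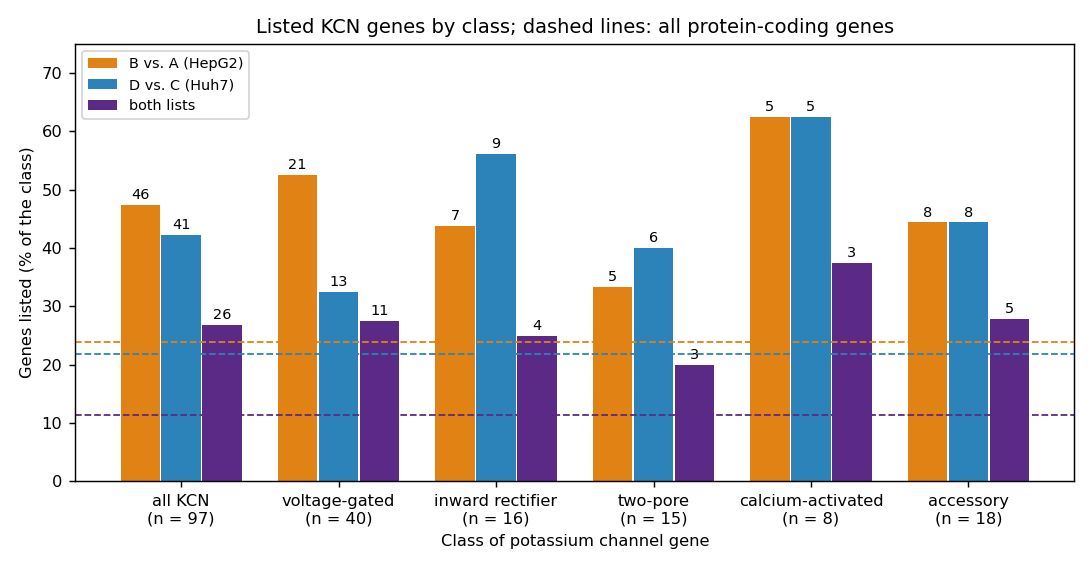
Bars give the share of the genes of each class that was listed (vertical axis, % of the class) in group B vs. A, in group D vs. C and in both lists, with the number of listed genes above each bar and dashed lines for all protein-coding genes (23.9%, 21.9% and 11.4%). The voltage-gated class stands at 52.5% in HepG2 cells and 32.5% in Huh7 cells, and the inward rectifiers at 43.8% and 56.2%.

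Channels are built from partners, and the lists were read again by the sets that assemble. The sets are small and none was tested. Beside them, 47.4% of all KCN genes were listed in HepG2 and 42.3% in Huh7 cells. Of all protein-coding genes, 23.9% and 21.9% were. KCNQ1 and its partners KCNE1 to KCNE5 had 5 of 6 genes listed in each cell line, with KCNQ1, KCNE1, KCNE2 and KCNE4 in both and none left unlisted. The KCND channels with KCNIP1 to KCNIP4, DPP6 and DPP10 had 6 of 9 genes in the HepG2 list and 4 in the Huh7 list, the 4 being KCND1, KCND2, KCND3 and KCNIP2. KCNA channels with the KCNAB subunits had 0 of 11 in HepG2 and 3 in Huh7 cells.

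The large conductance channel KCNMA1 with its beta and gamma subunits had the same 3 of 9 genes in each list, KCNMA1, KCNMB4 and LRRC38. The ATP-sensitive channel, which closes when ATP is plentiful, is formed by KCNJ8 or KCNJ11 with the sulfonylurea receptors ABCC8 and ABCC9. Of these 4 genes ABCC9 was listed in HepG2 cells, and ABCC9, ABCC8 and KCNJ8 in Huh7 cells. Of the 4 channels opened by G proteins, KCNJ6 was listed in HepG2 cells and KCNJ3, KCNJ5 and KCNJ6 in Huh7 cells, with KCNJ9 in neither. KCNJ10 and KCNJ16, which form a joint channel, were both listed in HepG2 cells, and KCNJ16 in Huh7 cells.

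Each listed KCN gene stood under at least 1 GO term with potassium in its name. The tables held 62 such terms, 61 in the HepG2 table and 55 in the Huh7 table, and the terms share most of their genes. The whole lists held 21.6% and 19.7% of the 22148 background genes. Of the 40 potassium terms with at least 10 background genes, the listed share exceeded that of the whole list for 38 in HepG2 and 37 in Huh7 cells. These shares rest on the same calls as the listing, and no test was run on them.

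Potassium ion transport, the widest of these terms, held 79 listed genes of 237 in HepG2 cells, of which 46 were KCN genes, and 82 in Huh7 cells, of which 41 were. Potassium channel activity held 52 of 126 genes in HepG2 (41.3%) and 51 in Huh7 cells (40.5%), with 45 and 41 KCN genes. KCNRG was the listed member outside this term, and it stood under negative regulation of potassium ion transmembrane transporter activity. Voltage-gated potassium channel activity held 43 of 96 genes (44.8%) and 40 (41.7%), and potassium channel complex held 40 of 93 in each (43.0%), with 34 and 32 KCN genes.

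The narrower terms follow the kinds of current. Delayed rectifier potassium channel activity held 17 of 30 genes in HepG2 (56.7%) and 11 in Huh7 cells (36.7%), all of them KCN genes, and 9 were in both. Those in the HepG2 table alone included KCNB2, KCNC2, KCNC4, KCNG1, KCNH2, KCNQ3 and KCNQ5. Inward rectifier potassium channel activity held 10 of 21 genes in HepG2 (47.6%) and 13 in Huh7 cells (61.9%). Potassium ion import held 14 of 37 and 18, with 8 and 10 KCN genes, whereas potassium ion export held 8 of 14 and 6. These differences between the cell lines were not tested.

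Outward rectifier potassium channel activity held 8 of 16 genes in each cell line, of which 7 were shared. Potassium ion leak channel activity held 5 of 16 in HepG2 and 6 in Huh7 cells, all of them KCNK genes. Calcium-activated potassium channel activity held 5 of 15 and 7, and the small conductance term 2 of 4 (KCNN3 and KCNN4) and 3 of 4 (KCNN1, KCNN2 and KCNN3). Both genes of the large conductance term, KCNMA1 and KCNU1, and all 3 of the A-type term, KCND2, KCND3 and KCNIP2, were listed in both cell lines. G-protein activated inward rectifier potassium channel activity held 5 of 10 genes in HepG2 and 4 in Huh7 cells. The former were KCNJ4, KCNJ6, KCNJ10, KCNJ15 and KCNJ16, and the latter KCNJ3, KCNJ5, KCNJ6 and KCNJ16. The term is thus wider than the set of 4 channels opened by G proteins given above.

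**Figure D3:**
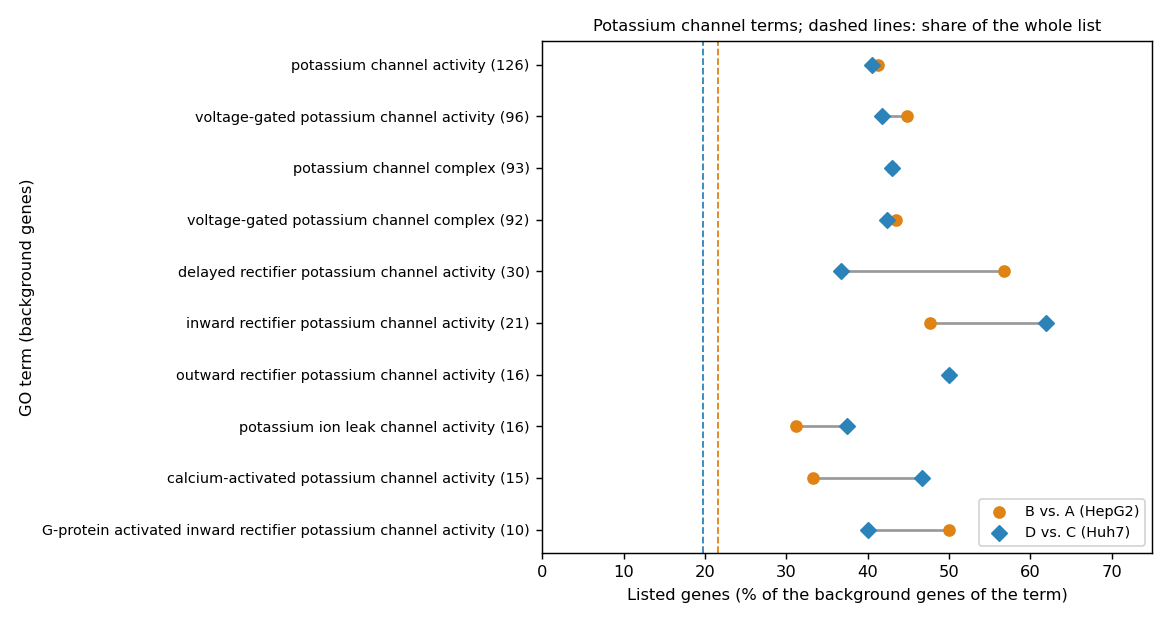
For 10 potassium channel GO terms (background genes in brackets) the points give the listed share of the term (horizontal axis, % of its background genes) in group B vs. A (circles) and group D vs. C (diamonds), and dashed lines give the share of each whole list (21.6% and 19.7%). Delayed rectifier activity lies at 56.7% in HepG2 cells and 36.7% in Huh7 cells and inward rectifier activity at 47.6% and 61.9%, while the points of potassium channel complex and of outward rectifier activity fall on each other.

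The terms for regulation held accessory genes beside pore-forming ones. Potassium channel regulator activity held 12 of 46 genes in HepG2 and 13 in Huh7 cells, with 7 and 9 KCN genes, among them KCNE1, KCNE2, KCNIP2, KCNMB4 and the silent subunit KCNS1 in both. Regulation of potassium ion transport held 28 of 87 and 21, with 11 and 8 KCN genes. Negative regulation of potassium ion transport held 9 of 21 and 5, where KCNE5 and KCNH2 were the KCN genes in HepG2 cells and Huh7 cells had 0.

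Terms for what the channels do in a tissue were read in the same way. Regulation of membrane potential held 164 listed genes of 506 in HepG2 cells (32.4%), of which 21 were KCN genes, and 159 in Huh7 cells (31.4%), of which 16 were. Under it stood 14 KCN genes in both tables, among them KCND2, KCND3, KCNK2, KCNMA1 and KCNQ1. Membrane repolarization held 16 of 39 and 14, with 7 and 6 KCN genes. Cardiac conduction held 31 of 73 and 32, with 8 and 9 KCN genes, of which KCND3, KCNE1, KCNE2, KCNK6 and KCNQ1 were in both. Regulation of heart contraction held 69 of 194 and 74, with 9 and 10.

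Voltage-gated potassium channel activity in cardiac muscle repolarization held 7 of 12 genes in HepG2 and 8 in Huh7 cells, all of them KCN genes. KCND3, KCNE1, KCNE2, KCNIP2 and KCNQ1 were in both, KCNE5 and KCNH2 in HepG2 cells, and KCNJ3, KCNJ5 and KCNJ8 in Huh7 cells. Many KCN genes are annotated from work on the heart and on neurons, and these names are annotations of the genes, not processes measured in liver cancer cells. Synaptic transmission held 235 of 834 genes in HepG2 and 229 in Huh7 cells, with 9 and 6 KCN genes.

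Terms for stress and growth were read next. Response to hypoxia held 95 listed genes of 312 background genes in HepG2 cells, with the KCN genes KCND2, KCNK2, KCNK3 and KCNMA1, and 85 in Huh7 cells, with the same genes but KCNK3. Cell volume homeostasis held 7 of 32 (21.9%) and 8 (25.0%), near the whole-list shares, with KCNMA1 in both and KCNN4 in HepG2 cells. Apoptotic process held 550 of 2113 genes in HepG2 cells, with KCNIP3 and KCNMA1 among the KCN genes, and 480 in Huh7 cells, with KCNMA1. Cell proliferation held 574 of 2189 (26.2%) and 547 (25.0%), with KCNH1 and KCNK2 in both. Insulin secretion held 51 of 224 (22.8%) and 55 (24.6%), with 2 KCN genes in each, among them KCNC2 in HepG2 cells and KCNS3 in Huh7 cells.

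The ion channel complex term held 102 of 268 genes in HepG2 and 104 in Huh7 cells. KCN genes were 34 of the former (33.3%) and 32 of the latter (30.8%), and 21 of them were in both tables. A listed KCN gene stood under 57 (KCNJ13) to 271 (KCNQ1) GO terms, with a median of 99 over the 61 genes. Other well annotated members were KCNE1 with 250, KCNK2 with 242 and KCNE2 with 233 terms. The number of terms measures how much is annotated to a gene.

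The KEGG pathway tables held 21 KCN genes in HepG2 and 23 in Huh7 cells, in 20 pathways. The 5 pathways whose counts follow were chosen for holding the most listed KCN genes, so their KCN numbers are high by that choice. The listed share over all pathway genes was not counted, and no pathway was tested. Cholinergic synapse held 39 of 113 background genes in HepG2 cells, of which 8 were KCN genes, and 36 in Huh7 cells, of which 6 were. KCNJ6, KCNJ14 and KCNQ1 were in both, KCNJ4, KCNQ3 and KCNQ5 in HepG2 cells, and KCNJ3 in Huh7 cells. Gastric acid secretion, where potassium recycles across the membrane of the parietal cell, held 29 of 75 in each cell line with 7 KCN genes in each. KCNE2, KCNJ16, KCNK2, KCNK10 and KCNQ1 were in both, KCNJ10 and KCNJ15 in HepG2 cells, and KCNJ1 and KCNJ13 in Huh7 cells.

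The insulin secretion pathway held 27 of 86 genes in HepG2 and 35 in Huh7 cells, with 5 and 6 KCN genes, all of the calcium-activated class but for KCNMB4. Oxytocin signaling pathway held 45 of 159 and 49, with 3 and 4 inward rectifier genes. The cGMP-PKG signaling pathway held 52 of 167 and 55, where KCNMA1, KCNMB4 and KCNU1 were in both and KCNJ8 in Huh7 cells. KCNJ6 stood in 9 pathways in each cell line, and KCNJ3 and KCNJ5 in 9 and 7 in Huh7 cells, among them those of the serotonergic and dopaminergic synapse.

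Potassium is also moved by proteins outside the KCN genes, and KCN channels have partners there, such as the sulfonylurea receptors, DPP6 and LRRC38. Of 36 genes of both kinds, 9 were listed in HepG2 (25.0%) and 14 in Huh7 cells (38.9%), with 7 in both (19.4%). Over all protein-coding genes the shares were 23.9%, 21.9% and 11.4%. The sodium-potassium pump, which builds the gradient that the channels use, gave its beta subunits ATP1B1 and ATP1B2 in both lists. Of the HCN channels, which pass sodium and potassium, HCN2 and HCN3 were listed in Huh7 cells alone. Of 6 cation-chloride cotransporters, SLC12A1 was in both lists, and SLC12A2 and SLC12A4 in that of Huh7 cells. Potassium ion antiporter activity, a term without KCN genes, held 3 of 17 genes in HepG2 (17.6%) and 8 in Huh7 cells (47.1%).

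Other channel families were set beside the KCN genes, without a test. Of 63 genes with the symbol prefixes of sodium, calcium and TRP channels, the HepG2 list held 32 (50.8%), the Huh7 list 25 (39.7%) and both lists 18 (28.6%). Of 73 genes with those of ligand-gated channels, the numbers were 20 (27.4%), 29 (39.7%) and 12 (16.4%). Some of these symbols encode no channel subunit or are readthroughs. Without them, a choice made once the counts were known, the numbers were 32, 25 and 18 of 61 genes and 20, 28 and 12 of 70 genes. The KCN shares of 47.4%, 42.3% and 26.8% stand next to those of the sodium, calcium and TRP channels, and no difference between the families was tested.

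Longer transcripts collect more reads, so transcript length was set beside the listing. The longest annotated transcript of the 46 KCN genes listed in HepG2 cells had a median of 4367 bases, and that of the 51 not listed 3920 bases. In Huh7 cells the medians were 3990 bases for the 41 listed genes and 4204 bases for the 56 others. Over all protein-coding genes the medians were 3332 and 3101 bases in HepG2 cells and 3270 and 3114 bases in Huh7 cells. The 26 genes in both lists ran from 1051 bases (KCNE2) to 19645 bases (KCNJ6), with a median of 4367 bases, and the 36 in neither had a median of 4171 bases. The part of length in the listing was not tested.

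**Figure D4:**
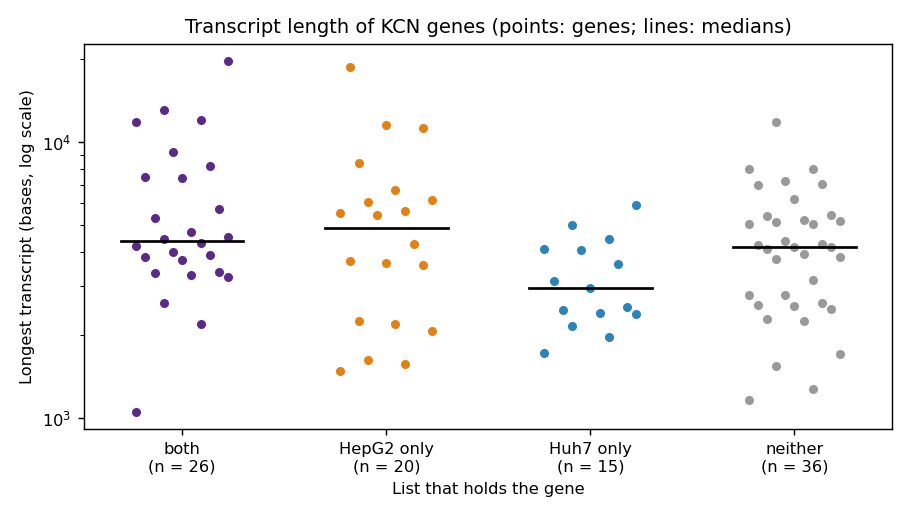
Points give the longest annotated transcript of each KCN gene (vertical axis, bases, log scale) by the list that holds the gene, and lines give the medians. The genes in both lists (median 4367 bases) and in neither (median 4171 bases) cover overlapping ranges.

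All protein-coding genes were split by transcript length into 4 bins of near equal size, with bounds of 1953, 3153 and 4938 bases, and the 97 KCN genes fell as 9, 21, 31 and 36 from the shortest to the longest bin. Their listed shares in HepG2 cells were 44.4%, 23.8%, 54.8% and 55.6%, where all genes had 19.4%, 25.5%, 24.1% and 26.5%. In Huh7 cells the shares were 22.2%, 47.6%, 54.8% and 33.3%, where all genes had 18.3%, 23.5%, 22.4% and 23.2%. The share of KCN genes did not rise from bin to bin throughout in either cell line, and the shortest bin held 9 of them. In HepG2 cells the shares were highest in the longest bin (55.6%) and the one below it (54.8%). In Huh7 cells the highest share was in the third bin (54.8%). These shares were not tested.

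Chromosome 1 held 14 of the members, of which 8 were listed in HepG2, 7 in Huh7 and 5 in both. Chromosomes 20 and 21 held 5 each, of which 4 were listed in HepG2, 3 in Huh7 and 3 in both, KCNE1, KCNE2 and KCNJ6 being those of chromosome 21. Chromosome 11 held 9, of which 2 were listed in HepG2 and 5 in Huh7 cells. Over all chromosomes 47.4% of the KCN genes were listed in HepG2 and 42.3% in Huh7 cells. The listed share of all protein-coding genes was not counted by chromosome, so these small numbers have no background. A part of chromosomal place in the listing was not tested. Protein length had a median of 534 residues in the 26 genes of both lists and 461 residues in the 36 of neither.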

How the data were processed

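Total RNA of 4 groups with 1 library each was depleted of ribosomal RNA and sequenced from strand-marked libraries. Per the labels, the submitters' processing notes name Bowtie2 2.2.8, HISAT2, StringTie 1.3.1 and Cuffdiff 2.1.1. The genome build was not given in the sources used here. An mRNA was called by the authors when its adjusted p-value was under 0.05, with Cuffdiff according to the methods but another tool according to the results text. They tested GO terms with GOseq, which models transcript length, and KEGG pathways with KOBAS. For each of the 2 comparisons the authors deposited a GO and a KEGG table with numbers of listed and background genes, identifiers of listed genes, and p-values and corrected p-values, which were not used. These numbers count genes, not reads, so library depth is unknown.

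Identifiers were matched to GENCODE release 29 (GRCh38) in Python 3.11.15, and coding sequences were translated with Biopython 1.88. The design had named a table of proteins for the filter search, in place of which translated coding sequences were searched. Filters on chromosome 8 are not printed. GO terms were named by the word potassium or from a fixed list of processes, the widest and those specific to a class being described, and KEGG pathways as the 5 with the most listed KCN genes. Listed KCN genes are named, except some that are counted in the totals but not reported here by name. Members, lists and terms were chosen with earlier results of these data known.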

Additional observations from a re-analysis of the deposited data

How the results depend on the processing

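The numbers of listed KCN genes were recounted under 7 alternatives, and every count stayed within 1.5 times that reported. With identifiers from GO or KEGG rows, from molecular function terms alone, with at least 5 GO terms required of a gene, or with the symbols of another gene table, the numbers were 46, 41 and 26 (HepG2, Huh7 and both), as reported. Requiring 5 GO terms could remove no gene, as each listed KCN gene had at least 57. The KEGG rows held no KCN gene outside the GO lists and could add none. These recounts are therefore no check of the calls. Without the accessory genes they were 38, 33 and 21 of 79, without genes that have a near copy 44, 39 and 24 of 93, and with the other potassium handling genes 55, 55 and 33 of 133. Allowing serine as the first filter residue, chosen after seeing the data, raised the number of genes with a match from 68 to 79. No replicate could be left out, as each group had 1 library. No paired analysis was possible because each group had 1 library and no result came from a test.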
